A study of Mus musculus with 16 samples.

Results

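Genes of the fetal haematopoietic programme were followed through 16 mouse RNA-seq libraries: Hmga2, Hmga1, Plag1, Lin28a, Lin28b, Igf2bp1, Igf2bp2, Igf2bp3, Arid3a and Sox17. They are 10 of the 55291 genes in the deposited count table, taken by name. Hmga2 and Plag1 were put forward with their low values in 2 of the mutant genotypes already known, so those values are a description, and nothing is read from their passing the threshold. Of the 10 genes, 7 had enough reads to be tested; Lin28b, Igf2bp1 and Sox17 were near 0 counts.

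The RNA came from bone marrow LSK cells, enriched with beads for c-Kit and Sca-1 and against lineage markers, a fraction that holds haematopoietic stem cells and early progenitors. Each library was 1 C57BL/6 mouse, with 4 mice per genotype. The double mutant mice (DM, genotype Asxl1Y588XTg;Srsf2P95H/+) carried both alterations. Asxl1Y588XTg mice carried a transgene for a truncated form of Asxl1, a chromatin regulator, and Srsf2P95H/+ mice carried a point mutation in 1 copy of Srsf2, a splicing factor. Wild-type (WT) mice were the controls. Both genes are recurrently mutated in human myeloid neoplasms. The sources used here do not give the promoter of the transgene, any Cre driver, or the age, sex and batch of the mice. The design text lists 3 DM samples, but 4 are labelled and have a column, and each of them entered the analysis.

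Lin28a and Lin28b are RNA-binding proteins of fetal stem cells that block the maturation of let-7 microRNAs. As LIN28 falls after birth, let-7 rises and lowers its target mRNAs, among them Hmga2, a chromatin-binding architectural protein that promotes stem-cell self-renewal in young mice. The Igf2bp proteins bind and stabilise mRNAs, Plag1 is a zinc-finger transcription factor known for activating Igf2, Arid3a is a DNA-binding factor of fetal B lymphopoiesis, and Sox17 is a transcription factor required in fetal but not adult haematopoietic stem cells.

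The let-7 seed and its matches are shown because they are the sequence that links most of these genes. From RefSeq (GRCm38.p6), 13 mature entries of the mouse let-7 family were kept. The search left out a chromosome, so they may not be the whole family. Of these, 12 share the seed, bases 2 to 8, printed in capitals in the first 2 lines. The DNA match to that seed, the letters CTACCTC, was searched on the transcript strand in the longest annotated 3′ UTR of each gene, and capitals mark it in the other lines. The sites are on GRCm38 with GENCODE M21 annotation, each lying in a 3′ UTR exon. Those of Hmga2 are at chr10:120364224-120364247, chr10:120362987-120363010, chr10:120362549-120362572 and chr10:120361691-120361714 (minus strand). The Hmga1 site is at chr17:27563276-27563299 (plus strand), the Igf2bp3 site at chr6:49086787-49086810 (minus strand) and the first Arid3a site at chr10:79953894-79953917 (plus strand).
mmu-let-7a-5p: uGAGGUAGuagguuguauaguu
mmu-let-7g-5p: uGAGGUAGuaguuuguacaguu
Hmga2 site 1: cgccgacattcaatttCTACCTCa
Hmga2 site 2: tccccactcctcaataCTACCTCt
Hmga2 site 3: cctgatttgcaaggaaCTACCTCc
Hmga2 site 4: caatcaaaacacactaCTACCTCt
Hmga1 site 1: ctcctctgttcacaaaCTACCTCt
Igf2bp3 site 1: gtgcatttttactcaaCTACCTCa
Arid3a site 1: caaggcaagtttctttCTACCTCa

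Of the 10 genes, 8 held at least 1 match, against 1898 of 21037 protein-coding genes with an annotated 3′ UTR (9.02%). This background was not matched for length: the median 3′ UTR of all genes was 960 bases. Those of the 10 genes had 785 to 6337 bases, and only that of Sox17 was shorter than the median. Hmga2, Lin28b and Igf2bp1 held 4 matches each, a number reached by 12 genes in all. Lin28a and Arid3a held 2 each, and Hmga1, Igf2bp2 and Igf2bp3 held 1 each. Plag1 held none in 2694 bases and Sox17 none in 785. The 3′ UTR of Hmga2 had 3014 bases. Whether the number of matches relates to differences between genotypes was not tested. The sites are letter matches and not measured binding, and several of the genes are in the programme because they are known let-7 targets.

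**Figure D1:**
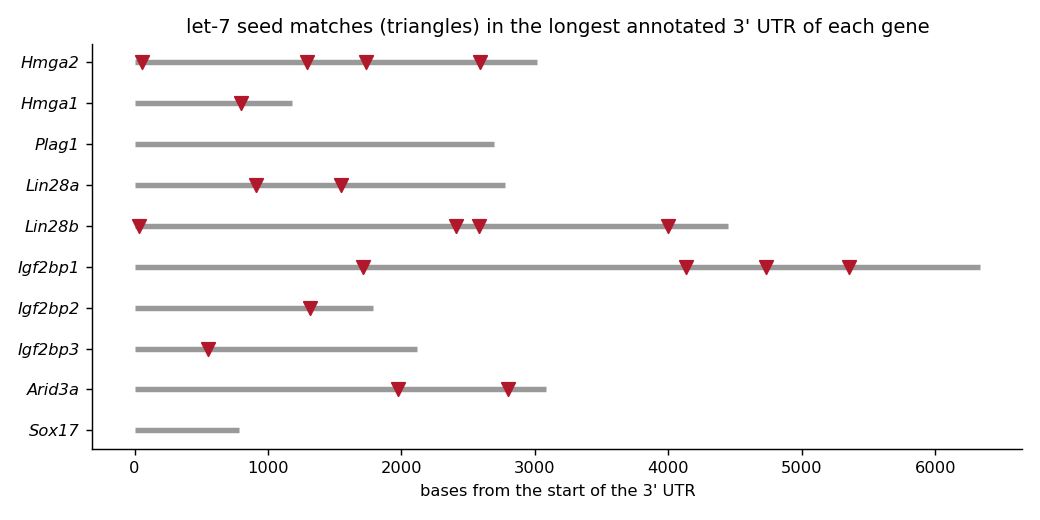
Position of each let-7 seed match (triangle) in the longest annotated 3′ UTR of the 10 genes (grey line), in bases from the start of the 3′ UTR. Hmga2, Lin28b and Igf2bp1 have 4 triangles each, whereas Plag1 and Sox17 have none.

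Total counts were 82.99 to 127.6 megacounts per library, and levels are given as CPM, counts per megacount of library after TMM scaling. The labelled cell type was checked first: Kit averaged 1042 CPM in DM, 822 CPM in Asxl1Y588XTg, 886 CPM in Srsf2P95H/+ and 943 CPM in WT, and Cd34 averaged 945, 802, 899 and 836 CPM in the same order. Ly6a, which encodes Sca-1, averaged 35.6, 36.5, 42.3 and 30.4 CPM. Within this population the markers of subsets shifted in DM versus WT. Flt3, of multipotent progenitors, averaged 289 ± 58.6 CPM in DM, 305 ± 74.5 CPM in Asxl1Y588XTg and 335 ± 49.7 CPM in Srsf2P95H/+, against 558 ± 169 CPM in WT mice (SD, n = 4), and fell in DM (log2 fold change -0.95, edgeR adjusted p = 0.0239). Slamf1 and Tek, of stem cells, rose in DM (1.03 and 0.95, edgeR adjusted p = 0.0121 and 0.0180). None of these passed in the single mutants, and their part in the results on the 10 genes was not tested. None of the 10 LSK markers was at 0 in any library, and their summed level was 2724 to 3254 CPM in DM, 2149 to 2663 CPM in Asxl1Y588XTg, 2488 to 3012 CPM in Srsf2P95H/+ and 2654 to 3475 CPM in WT. WT mouse 4 stood apart in markers of other cells: its B-lineage markers summed to 131.6 CPM and its eosinophil markers to 1532 CPM, while no other library exceeded 47.6 and 471.9 CPM. Xist was high in 5 libraries, at 1566 CPM or more, and at most 2.11 CPM in the others. In these bulk libraries, fewer cells of a type and less RNA per cell cannot be told apart.

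Per kilobase of exon, the order of the 7 tested genes in WT was Hmga1 at 59.6 ± 10.7 CPM per kb, Arid3a at 6.11 ± 1.27, Hmga2 at 3.25 ± 0.451, Plag1 at 1.64 ± 0.619, Igf2bp2 at 0.482 ± 0.0979, Lin28a at 0.384 ± 0.219 and Igf2bp3 at 0.320 ± 0.139 (SD, n = 4). Igf2bp2, Lin28a and Igf2bp3 lay within each other's spread, and each of the other neighbours in this order differed by more than the sum of their SDs. In Asxl1Y588XTg mice Hmga2 was at 0.804 ± 0.323 CPM per kb and Plag1 at 0.472 ± 0.143, so these neighbours lay within their spread there.

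Hmga2 (chromosome 10, 120361275 to 120476469, minus strand) had 15.9, 18.8, 12.97 and 8.48 CPM in the 4 DM mice, 3.74, 7.78, 6.83 and 3.43 CPM in Asxl1Y588XTg mice, 22.9, 33.2, 29.8 and 27.9 CPM in Srsf2P95H/+ mice, and 21.9, 20.0, 26.4 and 19.8 CPM in WT mice. Every Asxl1Y588XTg library was below every library of the other 3 genotypes, and every DM library was below every Srsf2P95H/+ and WT library. The means were 14.03 ± 4.395, 5.45 ± 2.19, 28.4 ± 4.29 and 22.0 ± 3.05 CPM in that order (SD, n = 4). DM mice thus lay between Asxl1Y588XTg mice and the other groups without overlapping any of them. Srsf2P95H/+ and WT mice overlapped, with the highest levels.

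In Asxl1Y588XTg versus WT, Hmga2 was 4.05-fold lower (log2 fold change -2.02, SE 0.27) and in DM versus WT its log2 fold change was -0.65 (SE 0.26). The Asxl1Y588XTg value was already known, and the DM comparison shares its WT mice. In Srsf2P95H/+ versus WT its log2 fold change was 0.37 (SE 0.26, edgeR adjusted p = 0.392), which did not pass. Hmga2 was 2.58-fold higher in DM than in Asxl1Y588XTg mice (log2 fold change 1.37, SE 0.27, edgeR adjusted p = 0.0269, higher in 4 of 4 DM mice than in any Asxl1Y588XTg mouse). This comparison shares the Asxl1Y588XTg mice in which the low level was already known, so it is not independent of the choice of the gene. It missed the threshold in 8 of 26 alternative runs: it needed each of Asxl1Y588XTg mice 1 and 4 (adjusted p = 0.106 and 0.0949 without them in edgeR) and each of DM mice 1, 2 and 3 (adjusted p = 0.1096, 0.0898 and 0.0508 in edgeR), and the log2 fold change stayed between 1.18 and 1.59. The comparison of DM with Srsf2P95H/+ uses the DM mice, whose low levels were also among the values known, so it is not independent of the choice either. There Hmga2 had a log2 fold change of -1.02 (SE 0.26, 95% interval -1.53 to -0.51, edgeR adjusted p = 0.196), with all 4 DM mice below all 4 Srsf2P95H/+ mice, and did not pass except with DESeq2 (adjusted p = 0.00712). The interaction, DM minus both single mutants plus WT, was 0.997 for Hmga2 (SE 0.37, edgeR adjusted p = 0.378) and did not pass.

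Plag1 (chromosome 4, 3900996 to 3938423, minus strand) had 3.16, 1.94, 4.55 and 1.97 CPM in DM mice, 2.76, 4.53, 5.44 and 3.28 CPM in Asxl1Y588XTg mice, 4.82, 5.48, 8.37 and 5.93 CPM in Srsf2P95H/+ mice, and 8.95, 11.3, 14.4 and 21.1 CPM in WT mice. All 12 mutant libraries lay below all 4 WT libraries. The means were 2.90 ± 1.23, 4.00 ± 1.21, 6.15 ± 1.55 and 13.9 ± 5.26 CPM in that order (SD, n = 4). Among the mutants, DM lay below Srsf2P95H/+ in every library, whereas Asxl1Y588XTg overlapped both.

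The log2 fold change of Plag1 was -1.80 (SE 0.32) in Asxl1Y588XTg versus WT and -2.26 (SE 0.32) in DM versus WT, the values with which it was put forward. In Srsf2P95H/+ versus WT, which shares those WT mice, it was -1.18 (SE 0.31, 95% interval -1.79 to -0.57, edgeR adjusted p = 0.0580), just short of the threshold of 0.05. It passed in 5 of 26 alternative runs, among them DESeq2 (adjusted p = 0.00486) and limma-voom (adjusted p = 0.0344), and without WT mouse 1 (edgeR adjusted p = 0.0265) or Asxl1Y588XTg mouse 2 (edgeR adjusted p = 0.0497). In DM versus Srsf2P95H/+ the log2 fold change was -1.08 (SE 0.31, edgeR adjusted p = 0.295), and in DM versus Asxl1Y588XTg it was -0.46 (SE 0.31, edgeR adjusted p = 0.468). Neither passed, both use mice whose low Plag1 was known, and the interaction of 0.71 (SE 0.44, edgeR adjusted p = 0.546) did not pass. WT mouse 4, with its high B-lineage and eosinophil markers, had the highest Plag1 level. Leaving out each library in turn, that mouse included, kept the log2 fold change between -1.98 and -1.53 in Asxl1Y588XTg versus WT and between -2.56 and -1.99 in DM versus WT.

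**Figure D2:**
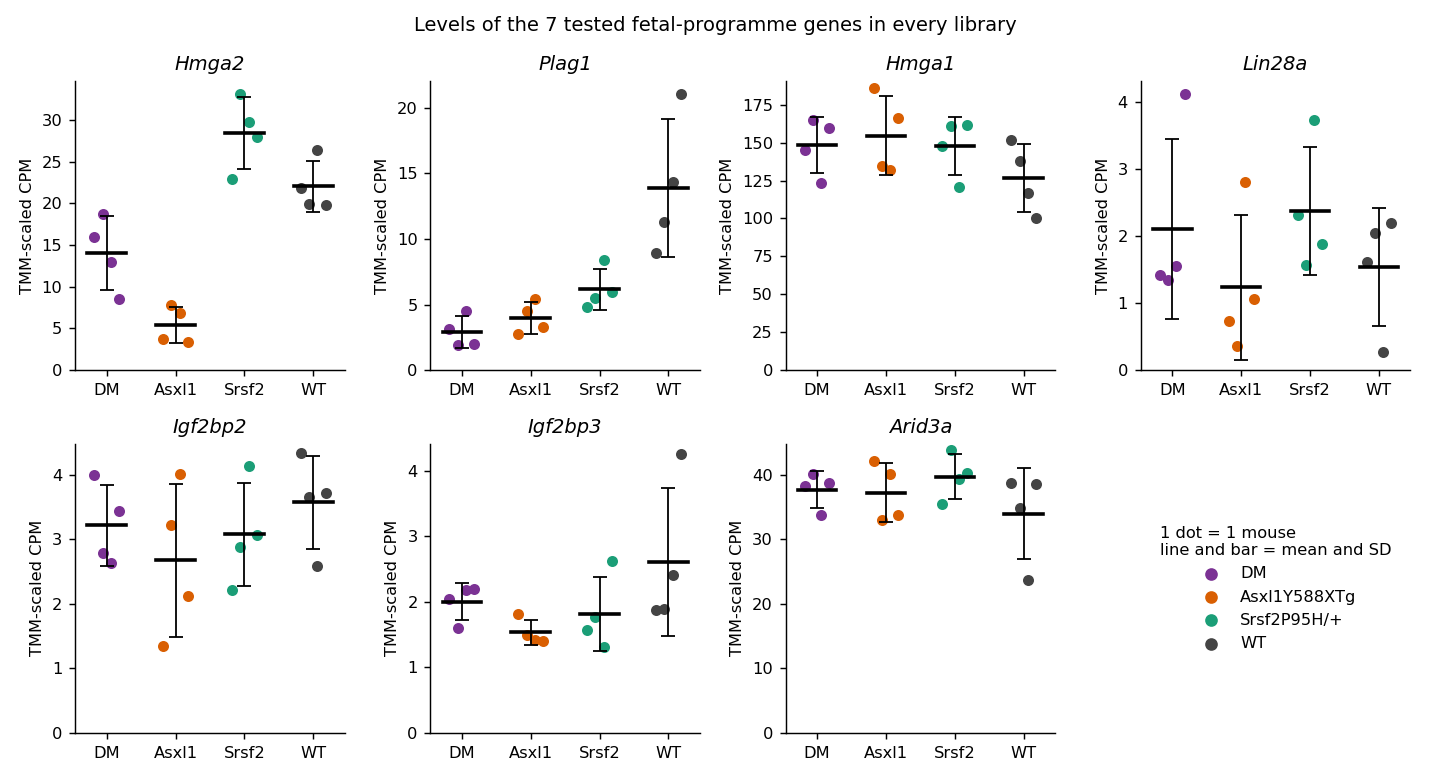
TMM-scaled CPM of the 7 tested genes in DM, Asxl1Y588XTg, Srsf2P95H/+ and WT mice (1 dot per mouse, line and bar for mean and SD, n = 4 each). Hmga2 is lowest in Asxl1Y588XTg mice (3.43 to 7.78 CPM), and Plag1 is highest in WT mice (8.95 to 21.1 CPM).

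Hmga1 (chromosome 17, 27556497 to 27563674, plus strand), a relative of Hmga2, was the most abundant of the 10 genes and overlapped between all genotypes. It had 145, 165, 123 and 159.97 CPM in DM mice, 186, 134, 132 and 166 CPM in Asxl1Y588XTg mice, 148, 161, 121 and 161 CPM in Srsf2P95H/+ mice, and 152, 138, 117 and 100.5 CPM in WT mice. Its log2 fold change against WT was 0.23 in DM (SE 0.14, edgeR adjusted p = 0.286), 0.29 in Asxl1Y588XTg (SE 0.14, edgeR adjusted p = 0.250) and 0.22 in Srsf2P95H/+ (SE 0.14, edgeR adjusted p = 0.339). In Asxl1Y588XTg versus WT the approximate 95% interval of Hmga1 was 0.01 to 0.56 on the log2 scale, beside -2.02 for Hmga2. The edgeR p of Hmga1 before adjustment was 0.0577, so no change is read from that interval lying above 0. Hmga1b, a single-exon copy of Hmga1 (chromosome 11, 120762794 to 120764419), shares 78.8% of its 100-base windows with Hmga1 transcripts. It had 30 to 109 counts in 15 libraries and 2604 counts in Srsf2P95H/+ mouse 3, the mouse with the lowest Hmga1 of its group. The sum of both genes in that mouse was 147 CPM, so the Hmga1 level there is uncertain.

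Arid3a (chromosome 10, 79927043 to 79955018, plus strand) averaged 37.7 ± 2.81 CPM in DM, 37.3 ± 4.597 CPM in Asxl1Y588XTg, 39.7 ± 3.45 CPM in Srsf2P95H/+ and 34.0 ± 7.09 CPM in WT mice (SD, n = 4). The groups overlapped, with 23.7 CPM in WT mouse 3 as the lowest value, and no comparison passed (edgeR adjusted p of 0.293 or more). Its 95% interval on the log2 scale was -0.11 to 0.41 in DM versus WT and -0.12 to 0.39 in Asxl1Y588XTg versus WT. The latter holds no change as large as that of Hmga2 or Plag1 in the same comparison.

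The 2 detected Igf2bp genes were low. Igf2bp2 (chromosome 16, 22059009 to 22163299, minus strand) averaged 3.21 ± 0.624 CPM in DM, 2.67 ± 1.18 CPM in Asxl1Y588XTg, 3.07 ± 0.796 CPM in Srsf2P95H/+ and 3.57 ± 0.725 CPM in WT mice (SD, n = 4), and all groups overlapped. Igf2bp3 (chromosome 6, 49085223 to 49214957, minus strand) had 2.04, 1.60, 2.19 and 2.20 CPM in DM mice, 1.81, 1.4996, 1.42 and 1.41 CPM in Asxl1Y588XTg mice, 1.57, 1.77, 1.32 and 2.62 CPM in Srsf2P95H/+ mice, and 1.87, 1.88, 2.41 and 4.26 CPM in WT mice. All Asxl1Y588XTg libraries lay just below all WT libraries and the log2 fold change was -0.77 (SE 0.27, edgeR adjusted p = 0.120). WT mouse 4 was again the highest, and the log2 fold change ranged from -0.89 to -0.42 over runs without 1 library each. Of the exon length of Igf2bp3, 18.7% overlaps Malsu1 on the opposite strand, a gene of 13.6 to 14.8 CPM in the mutant groups on average and 12.8 CPM in WT. The strand setting of the counting is not given, so reads of the 2 genes there cannot be told apart. Hmga2 shares 2.07% of its exon length with the antisense gene 1700006J14Rik, which averaged 2.74 ± 0.888 CPM in DM, 1.46 ± 0.582 CPM in Asxl1Y588XTg, 3.14 ± 0.812 CPM in Srsf2P95H/+ and 3.66 ± 1.56 CPM in WT mice (SD, n = 4). Plag1 overlaps no annotated exon of another gene.

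Lin28a (chromosome 4, 134003330 to 134018841, minus strand) was present at 1.41, 1.35, 1.55 and 4.11 CPM in DM mice, 0.733, 0.361, 2.80 and 1.06 CPM in Asxl1Y588XTg mice, 2.32, 1.58, 3.72 and 1.88 CPM in Srsf2P95H/+ mice, and 1.62, 2.05, 0.274 and 2.20 CPM in WT mice. The spread within each genotype was as wide as any difference between them, and no comparison passed (edgeR adjusted p of 0.560 or more). Its SE of 0.63 in Asxl1Y588XTg versus WT shows that a change of the size seen for Plag1 would have been hard to detect. Lin28b, its paralogue, had 0 to 17 counts per library, Igf2bp1 had 0 to 8 counts and none in WT, and Sox17 had 0 to 21 counts. A floor of 3 counts is 0.0235 to 0.0360 CPM in these libraries, by counting error only. No comparison between genotypes was made for these 3 genes.

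Counted over the 7 tested genes, 2 were past the threshold in Asxl1Y588XTg versus WT (Hmga2 and Plag1, both lower), where 1.88% of all 22749 tested genes were called and 0.76% were called lower. In DM versus WT 1 was called (Plag1, lower), with 9.39% of all tested genes called and 4.73% called lower. Nothing is read from these 2 counts, since both genes were put forward from these comparisons. In DM versus Asxl1Y588XTg 1 was called (Hmga2, higher), with a background of 1.08%, or 0.848% called higher. That comparison shares the Asxl1Y588XTg mice whose low Hmga2 was known, so nothing is read from this count either. No gene was called in Srsf2P95H/+ versus WT (background 0.506%) or in DM versus Srsf2P95H/+ (background 0.246%), and none of the 22749 genes was called for the interaction (background 0%). By edgeR, 2670 genes were under 0.05 for the interaction before adjustment, Hmga2 and Igf2bp3 among them. Groups did not overlap, with the first-named group lower, for 3 genes in Asxl1Y588XTg versus WT (Hmga2, Plag1 and Igf2bp3; background 5.28%). The same held for Plag1 in Srsf2P95H/+ versus WT (background 5.4%), for Hmga2 and Plag1 in DM versus WT (background 9.35%) and for Hmga2 and Plag1 in DM versus Srsf2P95H/+ (background 1.42%). In DM versus Asxl1Y588XTg, Hmga2 was higher without overlap (background 7.35%). Each of these comparisons shares mice whose Hmga2 and Plag1 levels were known when the genes were put forward. Nothing is therefore read from the lack of overlap of these 2 genes.

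**Figure D3:**
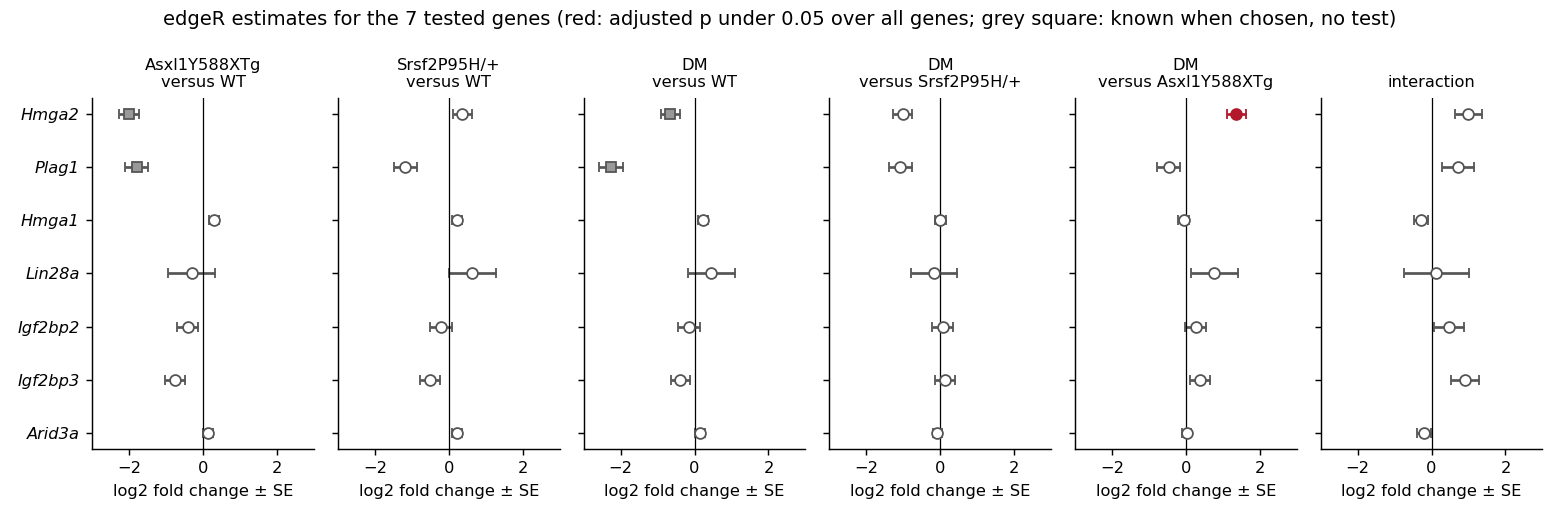
Log2 fold changes (dots, with SE as bars) of the 7 tested genes in 5 comparisons and the interaction, from 1 edgeR fit on 16 libraries. Filled red marks an adjusted p under 0.05 over all 22749 genes. It marks Hmga2 at 1.37 in DM versus Asxl1Y588XTg, a comparison that shares the mice whose low Hmga2 was known. Grey squares mark Hmga2 and Plag1 against WT in Asxl1Y588XTg and DM, which are shown without a test.

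Whether the genes varied together between mice of the same genotype was examined in 21 pairs, on log2 CPM minus the genotype mean, with labels permuted within genotypes 100000 times. Hmga1 and Plag1 varied in opposite directions (Pearson r = -0.930, permutation p = 4.00e-05, adjusted over 21 pairs 0.000840; Spearman rho = -0.888, permutation p = 0.0001, adjusted 0.0021; n = 16 libraries). Mice with the lowest Hmga1 of their genotype, such as WT 4, Srsf2P95H/+ 3, DM 3 and Asxl1Y588XTg 3, were those with the highest Plag1 of their genotype. Without WT 4 and Srsf2P95H/+ 3, the 2 mice farthest from the median of Hmga1, r was -0.905, and on CPM scaled by library size only it was -0.862. With the reads of Hmga1b added to those of Hmga1 it was -0.906. In Srsf2P95H/+ the opposite direction rests on mouse 3, whose Hmga1 level is uncertain: the other 3 mice deviated by 0.01, 0.13 and 0.14 in Hmga1 and by -0.32, -0.13 and -0.02 in Plag1. Other measures moved with the pair within genotypes: the summed LSK markers had r = -0.705 with Hmga1 and 0.607 with Plag1, the summed lineage markers -0.733 and 0.762, and the TMM factor -0.611 and 0.665. Their part in the result was not tested. The other 20 pairs had adjusted permutation p-values of 0.509 or more for Pearson's r, Hmga2 and Plag1 (r = 0.356) among them.

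**Figure D4:**
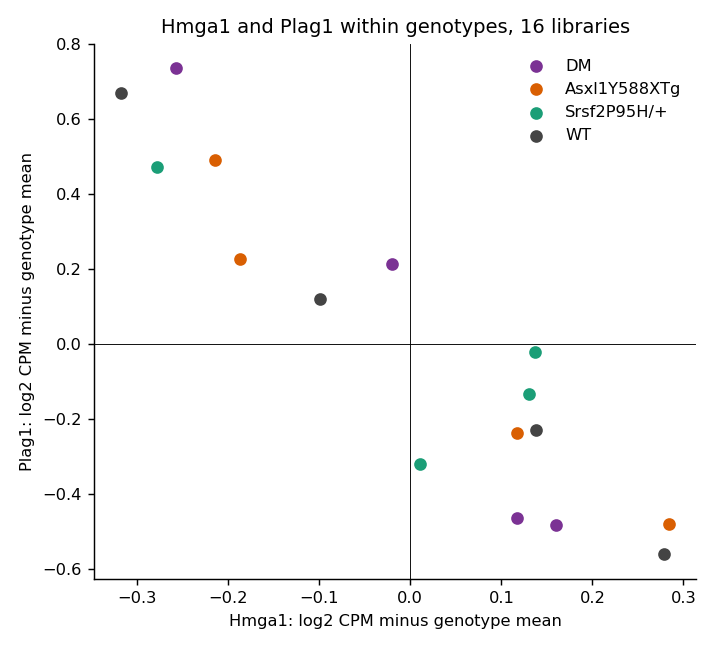
Log2 CPM of Plag1 against that of Hmga1, each minus the mean of its genotype, with 1 dot per mouse (16 mice, coloured by genotype). Over all 16 mice the dots run from upper left to lower right (Pearson r = -0.930), while 3 of the 4 Srsf2P95H/+ mice do not.

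The genes whose log2 CPM followed Hmga2 most closely over the 16 libraries were Ifi44 (r = 0.923), Irgm1 (r = 0.913), Chek2 (r = 0.902), Ranbp9 (r = 0.902) and Trim30a (r = 0.881). Ifi44 averaged 13.7 CPM in DM, 8.39 CPM in Asxl1Y588XTg, 24.8 CPM in Srsf2P95H/+ and 18.5 CPM in WT mice, the same order of genotypes as Hmga2. Those closest to Plag1 were Hif3a (r = 0.946), Ccser1 (r = 0.892), Mest (r = 0.888), Herc1 (r = 0.882) and Macf1 (r = 0.881). Hif3a averaged 4.18 CPM in DM, 4.43 CPM in Asxl1Y588XTg, 5.74 CPM in Srsf2P95H/+ and 9.46 CPM in WT mice. These genes were picked from all tested genes for their likeness, so the coefficients are a description, and the libraries share genotype, depth and scaling.

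The pathway around the 10 genes was described with lists of let-7 processing factors, let-7 host genes, other let-7 targets, the IGF axis, genes repressed by or partnered with Hmga2, family relatives and embryonic globins, 100 genes in all of which 79 were tested, none of them a globin. In Asxl1Y588XTg versus WT 2 of the 79 rose and none fell (2.53%, background 1.88%, or 1.12% called higher). In DM versus WT 5 rose and none fell (6.33%, background 9.39%, or 4.65% called higher), and none passed in the other 3 comparisons or the interaction. The median log2 fold change over the lists was -0.01 in Asxl1Y588XTg and 0.07 in DM versus WT, beside -0.04 and -0.02 over all tested genes.

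Among 17 tested genes of the let-7 processing and turnover list, 1 passed, so no change of let-7 processing is read from it. This was Zcchc3, whose part in let-7 processing is not established here. It averaged 16.8 ± 1.32 CPM in DM and 19.8 ± 0.944 CPM in Asxl1Y588XTg mice, against 12.8 ± 1.15 CPM in WT mice (SD, n = 4), and rose in Asxl1Y588XTg (log2 fold change 0.63, SE 0.12, edgeR adjusted p = 0.0127) and in DM (0.39, SE 0.12, edgeR adjusted p = 0.0470). Tut4, the uridylyltransferase that LIN28A recruits to let-7 precursors, had the smallest p of the list in the interaction (0.40, SE 0.13, edgeR adjusted p = 0.378) and did not pass. None of 5 tested let-7 host or precursor genes passed, the smallest p in DM versus WT being that of Wdr82 (0.18, edgeR adjusted p = 0.0876).

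Of 25 tested further let-7 targets, Dusp9, a phosphatase of MAP kinases, rose in both transgenic genotypes: 3.05 ± 0.437 CPM in DM and 3.21 ± 0.359 CPM in Asxl1Y588XTg, against 1.73 ± 0.309 CPM in WT mice (SD, n = 4; log2 fold changes 0.82 and 0.90, edgeR adjusted p = 0.0186 and 0.0254). E2f6, a repressor of the E2F family, rose in DM to 83.1 ± 8.27 CPM, against 62.9 ± 3.74 CPM in WT (SD, n = 4; log2 fold change 0.40, edgeR adjusted p = 0.0117). Ccnd1, cyclin D1, had a log2 fold change of 0.72 in DM versus Srsf2P95H/+ (edgeR adjusted p = 0.0503). None of these targets fell past the threshold in any comparison.

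In the IGF axis, 1 of 15 tested genes passed. Grb10, an imprinted adaptor that dampens insulin and IGF receptor signalling, rose in DM to 90.2 ± 14.02 CPM, against 47.7 ± 11.9 CPM in WT mice (SD, n = 4; log2 fold change 0.92, edgeR adjusted p = 0.0247). Igf2, the known Plag1 target, was at 0 to 0.165 CPM in every library, so its relation to Plag1 was not measurable here. Gm49394 on the same strand shares 62.8% of the exon length of Igf2, so counting could have split or dropped its reads. Igf1r, the receptor, averaged 341, 326, 347 and 347 CPM in DM, Asxl1Y588XTg, Srsf2P95H/+ and WT mice. Dlk1, an imprinted gene, averaged 6.19 ± 5.08 CPM in Asxl1Y588XTg and 0.805 ± 0.213 CPM in WT mice (SD, n = 4) and did not pass (edgeR adjusted p = 0.0661).

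None of 9 tested Hmga2-linked genes passed. Cdkn2a, which Hmga2 lowers in mouse neural stem cells, had 3 counts over all DM mice, 0 over Asxl1Y588XTg mice, 4 over Srsf2P95H/+ mice and 0 over WT mice. E2f1 had a log2 fold change of 0.38 in Asxl1Y588XTg versus WT (edgeR adjusted p = 0.0568), and Ezh2 one of 0.22 in DM versus WT (edgeR adjusted p = 0.100). Of 15 tested family relatives, Sox18, of the same SOX subgroup as Sox17, rose in DM to 2.701 ± 0.192 CPM, against 0.932 ± 0.464 CPM in WT mice (SD, n = 4; log2 fold change 1.53, edgeR adjusted p = 0.0301). Sox18 is also an endothelial gene. The summed endothelial markers were 403 to 464 CPM in DM and 322 to 395 CPM in WT mice. They were 320 to 494 CPM in Asxl1Y588XTg and 317 to 418 CPM in Srsf2P95H/+ mice, where Sox18 averaged 1.26 and 1.41 CPM. Of the 8 markers, Vwf averaged 113 CPM in DM and 51.4 CPM in WT, and Tie1 119 and 94.6 CPM. In the same order, Pecam1 averaged 125 and 121 CPM, Emcn 18.04 and 17.93 CPM, and Egfl7 42.96 and 56.93 CPM. Kdr, Cdh5 and Cldn5 averaged 4.18, 1.44 and 0.739 CPM in DM and 3.05, 1.16 and 0.349 CPM in WT. The part of these markers in the Sox18 result was not tested. Sox12 in Asxl1Y588XTg versus WT (log2 fold change 0.37, edgeR adjusted p = 0.0987) and Arid3b in Srsf2P95H/+ versus WT (-0.61, edgeR adjusted p = 0.0676) did not pass.

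In the comparisons where no gene of a list passed, the genes of smallest p gave the following log2 fold changes. In Srsf2P95H/+ versus WT they were 0.30 for Dgcr8, a microRNA processing factor, 0.20 for Wdr82, 0.35 for E2f6, -1.61 for Irs1, an insulin receptor substrate, and 0.25 for Ezh2 (edgeR adjusted p of 0.0546 to 0.0966). In DM versus Asxl1Y588XTg they were -0.28 for Drosha, the nuclear microRNA processing enzyme, 0.11 for Wdr82, 0.28 for Tgfbr1, 0.84 for Igf2r, the receptor that clears IGF2, and 0.27 for Ezh2 (edgeR adjusted p of 0.0814 to 0.407). In DM versus Srsf2P95H/+ they were 0.30 for Zcchc3, -0.10 for Huwe1, 1.79 for Irs1, 0.56 for Cdkn1c, a cell-cycle inhibitor, and -3.70 for Hmga1b, which rests on Srsf2P95H/+ mouse 3 (edgeR adjusted p of 0.364 to 0.938). In the interaction they were 1.78 for Mirlet7c-1, -0.60 for Hras, -3.82 for Dlk1, -0.45 for E2f1 and 1.25 for Sox5 (edgeR adjusted p of 0.378 to 0.531). In Asxl1Y588XTg versus WT, Mir99ahg, a let-7 host gene, was at -0.50 (edgeR adjusted p = 0.227). None of these changes passed the threshold.

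**Figure D5:**
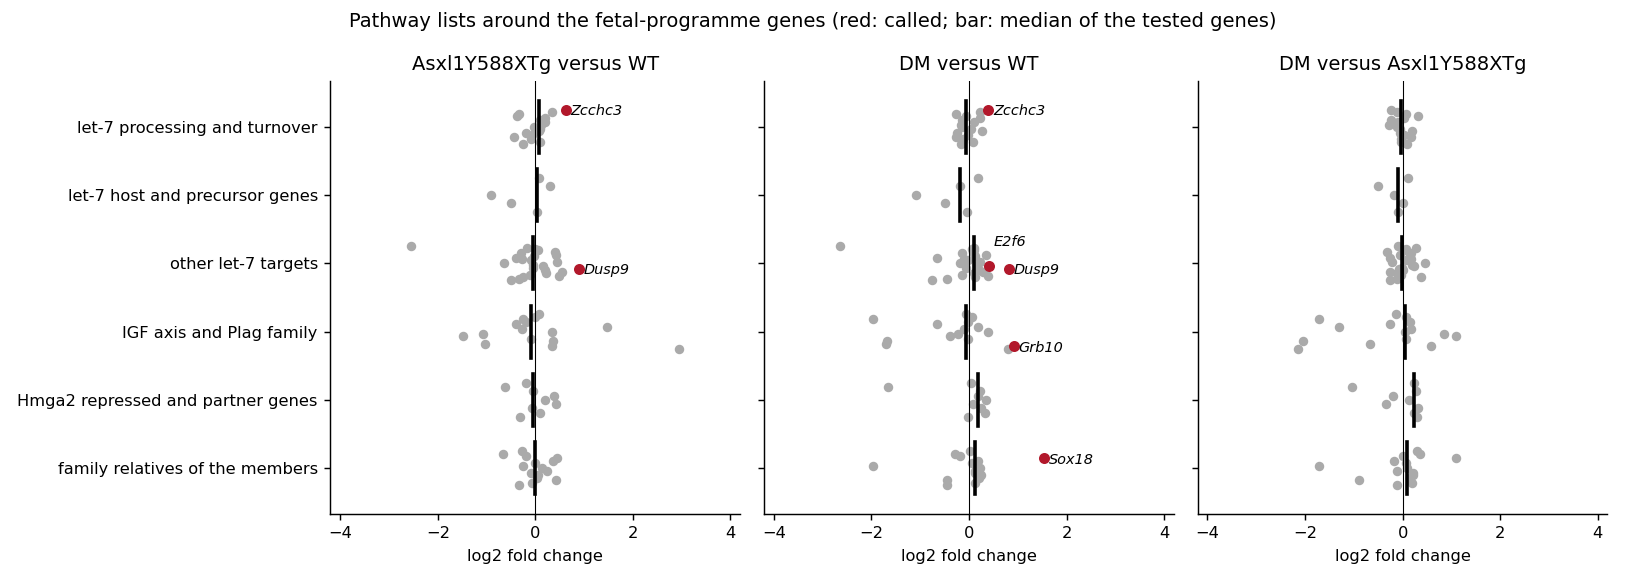
Log2 fold change of each tested gene (dot) in 6 pathway lists, for Asxl1Y588XTg versus WT, DM versus WT and DM versus Asxl1Y588XTg, with the list median as a black bar. Red dots passed an adjusted p under 0.05; all of them lie to the right of 0, from 0.39 to 1.53.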

How the data were processed

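The authors deposited raw counts per gene for 16 libraries in 1 table, without normalization. Per the labels' protocols, RNA of individual mice was prepared with a NEB Ultra RNA kit and sequenced as paired 100-base reads. Per the submitters' processing notes, mm10 was the genome, and STAR 2.7.0e, HTSeq 0.11.2, FastQC and Trimmomatic 0.38 were the tools. No source used here gives the annotation release or the strand setting. The Asxl1Y588XTg columns bear an abbreviated name and were matched by elimination.

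Counts were tested with edgeR 4.0.16 (R 4.3.3; filterByExpr with a minimum count of 10, TMM, robust quasi-likelihood) in 1 fit of 16 libraries, with Benjamini-Hochberg adjustment over 22749 genes. Calls are at an adjusted p under 0.05. The CPM are TMM-scaled, and log2 CPM use a prior count of 2. The script was tested on simulated data. DESeq2 1.42.0, limma-voom 3.58.1, other scalings and filters, a replicate block, an Xist covariate and runs without single libraries were alternatives. Replicate numbers mark no stated pairing. In log2 CPM minus the genotype mean, same-numbered libraries of different genotypes correlated at -0.293 to 0.295. No columns were identical and no per-sample column was left unused. Coordinates and UTRs are from GENCODE M21 (GRCm38), microRNAs from RefSeq.

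The genes and lists were chosen with earlier results of these data known. Named besides the 10 genes were the 5 most alike to Hmga2 and to Plag1 (predicted genes left out), and from each list the called genes or that of smallest p, with 1 gene not reported here. Igf2, Igf1r, Cdkn2a, Msi2, Plagl1, Plagl2, Hmga1b, the globins and the named LSK markers were singled out after their values were seen.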

Additional observations from a re-analysis of the deposited data

Results flagged for a closer look

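Lin28a was at 4.11 CPM in DM mouse 4, whereas the other 3 DM mice were between 1.35 and 1.55 CPM. The gap to the nearest mouse was 0.927 of the group's range, above Dixon's 95% critical value for 4 samples. Hmga1b was at 26.3 CPM in Srsf2P95H/+ mouse 3, against 0.345 to 0.680 CPM in the other 3 mice of that genotype, a gap of 0.987 of the range. These were the 2 flags among 32 gene and genotype sets, and chance flags about 1 in 20 such sets.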

How the results depend on the processing

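In Srsf2P95H/+ versus WT the count of called genes, 0, became 1 (Plag1) with DESeq2, with limma-voom and with the replicate block (edgeR adjusted p = 0.0337), and was 0 to 1 without single libraries. The block changed no other count, and the best match of a library bore its own number in 3 of 16 cases. In DM versus WT the count of 1 became 2 with DESeq2 and limma-voom (Hmga2, adjusted p = 0.0488 and 0.0403), and in DM versus Srsf2P95H/+ the count of 0 became 2 with DESeq2 (Hmga2 and Plag1). In DM versus Asxl1Y588XTg the count of 1 became 0 with library-size scaling, with no filter and with only the compared groups in the fit (Hmga2, edgeR adjusted p = 0.0504, 0.0565 and 0.0883), and was 0 to 1 without single libraries. The causes were not tested. Over all genes, DESeq2 called 1872, 2602 and 3914 genes in Asxl1Y588XTg, Srsf2P95H/+ and DM versus WT, against 428, 115 and 2135 with edgeR.

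Signs changed only for values that passed in no run. Without single libraries the log2 fold change ranged from -0.0055 to 0.20 for Arid3a in Asxl1Y588XTg versus WT, from -0.089 to 0.69 for Lin28a in DM versus WT, and from -0.43 to 0.92 for Lin28a in the interaction. It ranged from -0.079 to 0.084 for Hmga1, -0.72 to 0.13 for Lin28a and -0.053 to 0.24 for Igf2bp2 in DM versus Srsf2P95H/+. In DM versus Asxl1Y588XTg the range was -0.13 to 0.020 for Hmga1 and -0.035 to 0.070 for Arid3a. Hmga1 in DM versus Srsf2P95H/+ was -0.00200 with the stricter filter and -0.000957 with the Xist covariate, under which Lin28a was 0.025. Arid3a in DM versus Asxl1Y588XTg was -0.052 with library-size scaling and -0.031 with the stricter filter. Lin28a in the interaction was -0.038 with limma-voom and -0.25 without WT 4 and Srsf2P95H/+ 2 together. Library-size scaling moved the median of all genes to -0.16 in Srsf2P95H/+ and -0.12 in DM versus WT. The interaction uses all 4 groups, so no run with fewer was made. Genes near 1 CPM, such as Lin28a, limit what these libraries can show.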

Other observations

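Embryonic globins, which mark primitive and fetal erythroid cells, were essentially unread: Hbb-bh1, Hbb-bh2 and Hba-x had 0 counts in all 16 libraries. Hbb-y had 2 counts over the DM mice, 1 over the Asxl1Y588XTg mice, 1 over the Srsf2P95H/+ mice and 0 over the WT mice. Msi2, an RNA-binding regulator of haematopoietic stem cells, was abundant, averaging 509 ± 21.2 CPM in DM, 456 ± 12.3 CPM in Asxl1Y588XTg, 483 ± 45.8 CPM in Srsf2P95H/+ and 519 ± 54.6 CPM in WT mice (SD, n = 4). Plagl2, the relative of Plag1 that was well read, averaged 101 ± 4.61 CPM in DM, 95.9 ± 3.95 CPM in Asxl1Y588XTg, 103 ± 5.20 CPM in Srsf2P95H/+ and 96.6 ± 6.63 CPM in WT mice. Plagl1 was at most 0.345 CPM in any library.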
